A study of Mus musculus with 6 samples.

Results

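Cluster 7 was one of the 15 groups into which the study had clustered the nuclei of mouse jejunal organoids, and it is called fetal-like here from its markers. The study's text speaks of a cluster that expresses fetal signature genes without giving its number, so that the match to cluster 7 is not the study's own. Its members were the nuclei that carry the number 7 in the deposited table of nuclei, which came to 1442 of 38154. RNA had been counted in single nuclei of organoids, epithelial cultures that grow in Matrigel from intestinal crypts, here from the jejunum of C57BL/6 mice aged 8 to 12 weeks. The organoids were grown in medium conditioned by mouse embryonic fibroblasts, either quiescent after serum withdrawal (QCM, 3 samples) or senescent after X-rays or doxorubicin (SCM, 3 samples). All 6 samples thus received conditioned medium and no sample had fresh medium alone. The labels do not say which mouse gave which replicate or which senescence inducer was used, so that p-values measure only the spread between these samples, which may be technical.

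In QCM replicates 1, 2 and 3 the cluster held 145, 216 and 336 nuclei with 1442751, 690318 and 760326 UMIs (unique molecular identifiers, each counting 1 captured RNA molecule). In SCM replicates 1, 2 and 3 it held 17, 204 and 524 nuclei with 153653, 3402961 and 2124397 UMIs. These were 3.82%, 2.72% and 3.31% of the nuclei in QCM and 3.95%, 4.06% and 4.84% in SCM, with Wilson 95% confidence intervals from 2.48% to 6.24% in SCM replicate 1 and from 3.55% to 4.64% in SCM replicate 2. Those intervals cover counting error only.

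Some libraries stood apart in ways that touch the results below. QCM replicate 1 and SCM replicate 1 shared 175 cell barcodes, of the 430 that SCM replicate 1 holds, whereas other pairs of libraries shared 0 to 36. Among the 175 barcodes, 10 lay in cluster 7 of QCM replicate 1, 9 in cluster 7 of SCM replicate 1 and 2 in both. Barcodes in both replicate 1 libraries began with 48 different runs of 6 bases, against 959 to 960 in the other libraries. In SCM replicate 2 the nuclei of cluster 7 had on average 4.63 times the UMIs of the other nuclei, against 0.916 to 1.69 times in the other libraries, and 40.7% of them had at least 10000 UMIs, against 4.56% of its other nuclei.

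As background, the fetal intestinal epithelium, before crypts form, expresses a set of genes that the adult crypt has largely switched off, and injured adult epithelium can switch them on again while crypt base stem cell genes fall. Clusterin (Clu), Ly6a (Sca-1) and annexin A1 (Anxa1) are commonly used to mark this state. The co-activators YAP (Yap1) and TAZ (Wwtr1) drive much of it. They have no DNA-binding domain of their own, are kept out of the nucleus when the Hippo kinases LATS and MST are active, and act through the TEAD factors, often beside AP-1.

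The members were first checked against markers of the cell types that the sample could hold. Levels are given as UMIs per 1000000 UMIs (CPM), summed over the nuclei of a library. All 11 epithelial markers were above 5 CPM on average, and their summed level was 7332, 6707 and 5887 CPM in cluster 7 of QCM replicates 1, 2 and 3 and 4185, 9784 and 6514 CPM in SCM. That was 1.13 to 2.70 times the level outside the cluster, with Krt8, Krt18 and Krt19, keratins of simple epithelia, among the highest. Markers of cells outside the epithelium were low. None of the 14 measured fibroblast markers, 8 endothelial, 8 immune and 6 neuronal or glial markers reached 5 CPM on average over the libraries, nor did the 8 tuft cell markers or the 10 measured markers of gastric and squamous epithelium.

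Summed over the list, fibroblast markers stood at 2.90 to 23.7 CPM in cluster 7 and at 7.15 to 18.9 CPM in the other nuclei. For endothelial markers the ranges were 0 to 18.4 CPM and 5.001 to 20.04 CPM, and for immune markers 0 to 11.1 CPM and 3.09 to 6.26 CPM. The immune sum was 1.68 to 2.83 times as high in cluster 7 in 5 libraries, and 0 UMIs in SCM replicate 1 allow up to 19.5 CPM. For the gastric and squamous markers the sum was 3.77 to 13.0 CPM against 1.27 to 4.02 CPM, and it was 1.31 to 5.67 times as high in cluster 7 in all 6 libraries. Vim, a filament gene of mesenchymal cells, was at 0 to 2.63 CPM. Of the 5 mesothelial markers only Upk1b exceeded 5 CPM on average. The sum over that list was 12.5, 11.6 and 14.5 CPM in cluster 7 of QCM and 13.0, 4.996 and 2.35 CPM in SCM, against 3.51 to 9.24 CPM in the other nuclei, and it was higher in cluster 7 in 5 of 6 libraries (not SCM replicate 3). In the deepest 10% of the cluster's nuclei it was 22.1 to 30.8 CPM in 4 libraries and at most 5.59 CPM in SCM replicates 2 and 3, and the part of these genes in the results was not tested. Mesothelin (Msln), which mesothelial cells also express, was among the leading genes of cluster 7 and ranked first in its deepest 10%. Of the 5 mesothelial markers 4 were under 5 CPM on average. The source of Msln was not tested.

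Enterocyte, Paneth cell and enteroendocrine markers had a lower summed level in cluster 7 than in the other nuclei in all 6 libraries. It was 0.568 to 0.888 times as high for 12 enterocyte markers, 0.446 to 0.898 times for 8 Paneth cell markers and 0.244 to 0.755 times for 10 enteroendocrine markers. For 9 goblet cell markers it was 0.576 to 1.11 times. Factors that hold intestinal identity were somewhat lower in all 6 libraries, at 0.741 to 0.944 times over 14 genes. In all 5 libraries with at least 100 nuclei of the cluster, 6 of the 14 were lower and 1 higher, against 14.3% and 6.58% of all genes. In the deepest 10% of nuclei the sum was 800 to 1765 CPM in cluster 7 against 1779 to 2272 CPM outside it. In the remaining nuclei of the cluster it was 1260.5, 1939 and 1676 CPM in QCM and 1816, 1604 and 1774 CPM in SCM. The remaining nuclei outside it had 1235, 1998 and 1703 CPM and 1825, 2034 and 1907 CPM. Outside the deepest 10% the sum was thus close to the outside level in QCM and in SCM replicate 1. Cdx2 was at 65.2, 50.7 and 64.4 CPM in QCM and 26.0, 37.0 and 51.8 CPM in SCM, against 31.1 to 63.0 CPM in the other nuclei. The nuclei were thus epithelial by these lists. Intestinal identity factors were present, and their lower summed level was most marked in the deepest 10%. Summed over the cluster, the nuclei carried the fetal and regenerative genes described next, in accord with their name. These genes were unevenly spread by depth, as given below, so the name does not describe every nucleus.

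Genes that set cluster 7 apart are a description and carry no test, since the clusters were made from these same genes. A gene was counted when it was at least 2-fold higher in cluster 7 than in the other nuclei (pseudocount 1 CPM) in all 5 libraries with at least 100 nuclei of the cluster. That held for 244 of 31319 genes (0.779%), and 15 genes (0.0479%) were at least 2-fold lower. Among the 8466 genes that reached 20 CPM in either set of nuclei the counts were 143 (1.69%) and 2 (0.0236%). Without the 6% of nuclei with the most UMIs in each library and in each of both sets, 23 genes were higher and 6 lower.

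Of the 7 genes given as markers of the cluster, 6 met the rule. Syt16 (synaptotagmin 16, chr12:73997661-74273267, + strand, GRCm38), of the synaptotagmin family, stood at 153, 63.7 and 143 CPM in cluster 7 of QCM replicates 1, 2 and 3. In the SCM replicates it stood at 163, 373 and 200.1 CPM. In the other nuclei of the same 6 libraries it was between 0.593 and 15.3 CPM, so no library overlapped, and the median log2 ratio was 4.96. Cdh13 (T-cadherin, chr8:118283733-119324921, + strand), a cadherin anchored to the membrane by a lipid tail, was at 249, 86.9 and 107 CPM in QCM and at 13.0, 633 and 345 CPM in SCM. The value of 13.0 CPM rested on 2 UMIs in SCM replicate 1, where the other nuclei had 40.6 CPM, and this was the single library in which Cdh13 was not higher in cluster 7.

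Col4a1 and Col4a2 encode the chains of the main collagen IV of basement membranes. They lie head to head on chromosome 8 (chr8:11198423-11312826, - strand, and chr8:11312805-11449287, + strand), with annotated starts 21 bases apart. Col4a1 was at 38.8, 33.3 and 55.2 CPM in QCM and at 19.5, 159 and 35.3 CPM in SCM, against at most 6.90 CPM in the other nuclei. Col4a2 was at 36.0, 27.5 and 56.6 CPM and at 45.6, 187 and 32.0 CPM, against at most 6.38 CPM. Both were highest in SCM replicate 2. Samd5 (chr10:9622936-9675208, - strand), which encodes a SAM-domain protein, was at 72.1, 82.6 and 67.1 CPM in QCM and at 32.5, 442 and 136 CPM in SCM, and SCM replicate 2 was again highest.

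Clu (chr14:65968483-65981547, + strand), a secreted chaperone, was at 238, 225 and 113 CPM in QCM and at 501, 1545 and 243 CPM in SCM, against 9.11 to 130 CPM in the other nuclei. Fn1 (fibronectin, chr1:71585520-71653200, - strand), an extracellular matrix protein, was the exception among the markers. It had 0 UMIs in QCM replicates 1 and 2 and in SCM replicate 1, which allows up to 2.08, 4.35 and 19.5 CPM (3 UMIs of the total), 2.63 CPM in QCM replicate 3, and 160 and 25.9 CPM in SCM replicates 2 and 3. Fn1 thus marked the cluster in SCM replicates 2 and 3 and not in QCM, and SCM replicate 1 was too shallow to tell.

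**Figure D1:**
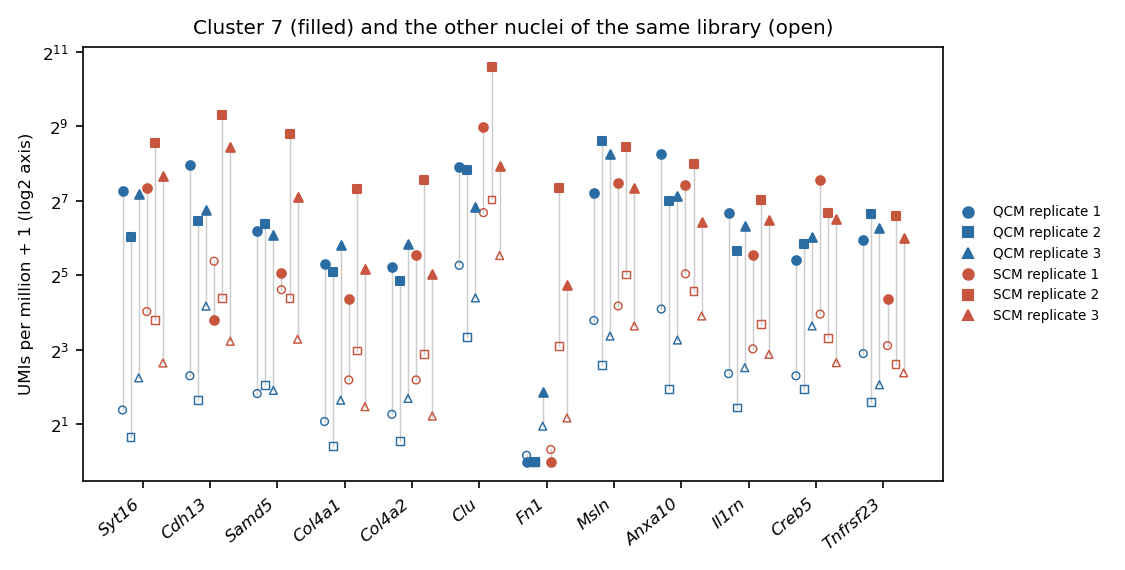
Level of the 7 markers and of 5 other leading genes in cluster 7 (filled symbols) and in the other nuclei of the same library (open symbols), as CPM plus 1 on a log2 axis, with blue for QCM, red for SCM and 1 shape per replicate number. Filled symbols lie above the open symbol joined to them for all genes but Cdh13 in SCM replicate 1 (13.0 against 40.6 CPM) and Fn1, which was at 0 in 3 libraries.

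Ranked by the median log2 ratio over the 6 libraries among genes of at least 20 CPM, the 20 leading genes were Syt16, Cdh13, Samd5, Col4a1, Col4a2, Dscaml1, Ano3, Samd4, Tnfrsf23, Il1rn, Cwh43, Anxa10, Dse, Msln, Creb5, Tnip3, Gprc5a, Myof, Wincr1 and Serpinb9b. Of these, 19 met the 2-fold rule in all 5 libraries, and Tnip3 did not because of 1.39 CPM in QCM replicate 1. Msln, a surface glycoprotein, was at 146, 390 and 303 CPM in QCM and 176, 347 and 162 CPM in SCM, against 5.04 to 31.5 CPM in the other nuclei. Anxa10, an annexin best known from gastric epithelium, was at 306, 127 and 139 CPM and at 169, 254 and 85.7 CPM, against 2.88 to 31.9 CPM. Both were high in both media with overlapping ranges.

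Il1rn, the secreted antagonist of the interleukin 1 receptor, was at 101, 49.3 and 78.9 CPM in QCM and 45.6, 130 and 89.0 CPM in SCM, against at most 12.0 CPM elsewhere. The decoy receptor gene Tnfrsf23 was at 61.0, 99.95 and 76.3 CPM and at 19.5, 96.1 and 62.6 CPM, against at most 7.66 CPM. Creb5, a transcription factor of the ATF family that can pair with JUN, was at 41.6, 56.5 and 64.4 CPM in QCM and 189, 102 and 89.9 CPM in SCM. The ranges of Creb5 did not overlap between the media.

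At the other end, the 10 genes with the lowest ratio among genes of at least 50 CPM elsewhere were Kcnb2, Ptprn2, Cacna1a, Kcnma1, Plcb1, Gm15645, Gcg, Gip, Esrrg and Gm20663. Kcnb2, Cacna1a and Kcnma1 encode potassium or calcium channel subunits, Ptprn2 a protein of secretory granules, and Gcg and Gip the hormone precursors of proglucagon and gastric inhibitory polypeptide. Kcnb2 was at 9.01, 14.5 and 18.4 CPM in QCM against 39.4, 103 and 82.2 CPM in the other nuclei. It was at 28.2 and 23.5 CPM in SCM replicates 2 and 3 against 86.2 and 91.4 CPM, and in SCM replicate 1 alone it was higher in cluster 7 (52.1 against 34.7 CPM).

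Genes of the fetal and regenerative epithelium were mostly higher in cluster 7. Of the 22 genes listed, 13 were at least 2-fold higher in all 5 libraries (against 0.779% of all genes) and 6 were under 5 CPM on average, and the median ratio of the summed level was 4.22 (range 3.10 to 7.69 over libraries). These counts describe the cluster and are no independent evidence of its name, which rests on such genes. Anxa1, whose protein binds membranes in a calcium-dependent way, was at 113, 62.3 and 43.4 CPM in QCM and 143, 306 and 119 CPM in SCM, against 4.24 to 40.3 CPM in the other nuclei. Anxa3 was at 121 to 395 CPM against 11.2 to 43.1 CPM. Ly6a was at 22.2, 59.4 and 34.2 CPM and at 78.1, 110 and 46.6 CPM, against 4.96 to 15.6 CPM.

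S100a6, a small calcium-binding protein, was at 742 to 1497 CPM in cluster 7 against 73.6 to 464 CPM in the other nuclei. Not all members of the list were present. Among the 6 under 5 CPM were Ly6c1, Gja1, Spp1, Il33 and Tubb6.

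The Hippo pathway was split between the co-activators. Of 18 genes of its core and TEAD factors, 2 were at least 2-fold higher in all 5 libraries (against 0.779% of all genes), Wwtr1 (TAZ) and Tead4. Wwtr1 was at 16.6, 24.6 and 26.3 CPM in QCM and 39.0, 41.7 and 25.4 CPM in SCM, against 0.960 to 3.65 CPM elsewhere. Tead4 was at 13.9, 17.4 and 9.21 CPM and at 26.0, 37.9 and 14.6 CPM, against 0.808 to 4.85 CPM. Yap1 itself was at 85.3, 148 and 121 CPM in QCM and 65.1, 150.2 and 149.7 CPM in SCM, against 84.4 to 151 CPM in the other nuclei, with a median log2 ratio of 0.018. Over the 18 genes the summed level was 1.07 to 1.22 times that of the other nuclei.

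Of 21 listed YAP target genes, 8 were at least 2-fold higher in all 5 libraries (against 0.779% of all genes), namely Myof, Amotl1, Ccn1, Ankrd1, F3, Igfbp3, Nt5e and Ptpn14, and 4 were under 5 CPM on average. The median ratio of the summed level was 1.70 (range 1.23 to 2.62). In the cluster's deepest 10% the sum was 1110, 1899 and 1244 CPM in QCM and 661, 2161 and 1427 CPM in SCM. The deepest 10% outside it had 533, 674 and 565 CPM and 706, 796 and 647 CPM. The remaining nuclei of the cluster had 263, 614 and 482 CPM in QCM and 903, 1811 and 676 CPM in SCM. Those outside it had 277, 572 and 435 CPM and 564, 732 and 521 CPM. In QCM the list was thus raised in the deepest 10% and close to the outside level in the rest. Myof (myoferlin), which takes part in membrane repair, was at 116, 154 and 71.0 CPM in QCM and 149.7, 568 and 186 CPM in SCM, against 8.39 to 37.0 CPM. F3 (tissue factor), which starts blood coagulation, was at 63.1, 199.9 and 153 CPM and at 91.1, 359.98 and 124 CPM, against 7.21 to 28.1 CPM. The widely used target Ccn2 was at 0 to 1.32 CPM in QCM and at 13.0, 26.4 and 1.41 CPM in SCM, where SCM replicate 1 held 2 UMIs.

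Ankrd1, another widely used target, was at 9.70, 69.5 and 2.63 CPM in QCM and at 0, 11.5 and 2.35 CPM in SCM, against at most 0.518 CPM elsewhere. Crim1, a membrane protein that binds growth factors, was not higher in cluster 7, at 103, 230.3 and 174 CPM in QCM and 163, 211 and 184 CPM in SCM against 128 to 325 CPM. The list was thus uneven, since Crim1 and Dock5, which were among its 4 most abundant members beside Myof and F3, were near the level of the other nuclei.

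The 250 bases before the start of each marker and of 7 YAP targets, those named by level or by p, were searched on both strands for CATTCC (the core bound by TEAD), TGANTCA (the core bound by AP-1, N being any base) and TATAAA (the TATA box). RefSeq promoters on GRCm38.p6 were matched for 10 of 14 candidates (not Clu, Fn1, Cdh13 or Dock5), with 2 starts for Rbms3. CATTCC stands in 12.6% of the same window of 32851 RefSeq promoters, TGANTCA in 6.75% and TATAAA in 12.4%. Syt16, Samd5, Col4a1, Col4a2 and Myof held no match, which says only that these letters are not in the window. The sequences below show the upstream stretch of Ptpn14 and, for contrast, of Samd5 (no match) and of Crim1 (a match, but not higher in cluster 7), trimmed to bases outside annotated exons, and for F3 the stretch around a pair of matches. Capitals mark the matches.
Ptpn14, chr1:189728018-189728267, + strand: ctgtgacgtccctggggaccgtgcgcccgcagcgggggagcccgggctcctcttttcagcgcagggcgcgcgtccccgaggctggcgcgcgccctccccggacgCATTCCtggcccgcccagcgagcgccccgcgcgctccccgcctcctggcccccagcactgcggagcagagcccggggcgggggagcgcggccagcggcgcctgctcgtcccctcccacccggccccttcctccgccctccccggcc
F3, chr3:121723391-121723408, + strand: TGAATCAcggtTGAGTCA
Crim1, chr17:78200026-78200247, + strand: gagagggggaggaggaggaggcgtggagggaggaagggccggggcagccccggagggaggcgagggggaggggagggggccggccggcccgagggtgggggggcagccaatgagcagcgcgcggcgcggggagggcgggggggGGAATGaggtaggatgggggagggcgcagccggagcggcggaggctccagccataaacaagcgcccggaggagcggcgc
Samd5, chr10:9675209-9675458, - strand: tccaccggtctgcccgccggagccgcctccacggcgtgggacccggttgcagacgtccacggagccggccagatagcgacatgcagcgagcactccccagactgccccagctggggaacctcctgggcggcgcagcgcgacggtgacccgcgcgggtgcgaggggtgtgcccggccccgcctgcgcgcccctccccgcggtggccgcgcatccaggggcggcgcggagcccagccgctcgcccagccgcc
The match in Ptpn14 lay at -146 to -141 from the start. The matches in F3 were TGAATCA at -146 to -140 and TGAGTCA at -135 to -129, and the match in Crim1 was on the other strand, as GGAATG at -79 to -74. Ankrd1, not printed because annotated exons overlap its window, held GGAATG at -210 to -205 and at -123 to -118, and Rbms3 held TATAAA at -232 to -227 from 1 of its starts. A match is a description and is not known to be bound in these nuclei.

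Of 23 basement membrane and matrix genes 8 were at least 2-fold higher in all 5 libraries, against 0.779% of all genes and 1.69% of those of at least 20 CPM. Among the 8 were Col4a1, Col4a2, Col4a5, Lama3, Lama5, Col18a1 and Thbs1. By any fold 11 were higher and 2 (Hspg2 and Fras1) lower in all 5, against 6.58% and 14.3% of all genes, and 8 were under 5 CPM on average. Among the 12554 genes of at least 5 CPM in either set of nuclei those shares were 14.1% and 19.9%. The median ratio of the summed level was 2.58 (range 1.89 to 5.38). Lama3, a laminin chain of epithelial basement membranes, was at 18.7, 13.0 and 13.2 CPM in QCM and at 13.0, 116 and 43.8 CPM in SCM, against 1.14 to 7.91 CPM in the other nuclei. The integrin subunit Itgb4, part of a laminin receptor, was at 97.0, 154 and 119.7 CPM and at 149.7, 339 and 157 CPM, against 44.3 to 78.2 CPM. Of 20 integrin and adhesion genes 2 met the 2-fold rule (Itgb4 and Cdh13), as did 2 of 20 actin and focal adhesion genes (Pdlim7 among them), against 0.779% of all genes.

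Of 12 genes of the EGF receptor family and its ligands, 6 were higher in all 5 libraries, 1 (Nrg1) was lower in all 5 and 3 were under 5 CPM on average. The first and second count stand against 6.58% and 14.3% of all genes. Areg (amphiregulin) was at 488, 545 and 501 CPM in QCM and 202, 454 and 372 CPM in SCM, against 96.3 to 128 CPM in the other nuclei, and Ereg and Hbegf also met the 2-fold rule. Egfr was at 104 to 459 CPM against 63.7 to 172 CPM. Of 11 measured AP-1 and immediate early genes, 10 were higher by any fold in all 5 libraries, against 6.58% of all genes and 14.1% of those of at least 5 CPM. At least 2-fold higher was 1 (against 0.779% of all genes), Ier3, at 43.3 to 75.3 CPM against 8.91 to 12.8 CPM.

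Of 12 listed genes of the p53 response and cell cycle arrest, 9 were higher by any fold in all 5 libraries, 3 of them at least 2-fold (Trp53inp1, Gdf15 and Plk2), and 1 (Sesn1) was lower in all 5. Over all genes those shares were 6.58%, 0.779% and 14.3%. The summed level was 1.62 to 2.64 times the level outside the cluster. Trp53inp1, which promotes p53 activity, was at 59.6, 76.8 and 107 CPM in QCM and 71.6, 156 and 151 CPM in SCM, against 18.9 to 36.8 CPM. Gdf15, a stress-induced cytokine, was at 35.3, 78.2 and 73.7 CPM and at 39.0, 62.0 and 88.0 CPM, against 11.5 to 15.5 CPM. The cell cycle inhibitor Cdkn1a (p21) was at 94.96, 89.8 and 155 CPM and at 58.6, 114 and 95.1 CPM, against 31.7 to 60.6 CPM. Cdkn2a, the other inhibitor commonly tied to senescence, was under 5 CPM on average.

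Of 7 crypt base stem cell genes none was higher in all 5 libraries, 3 were lower in all 5 (against 14.3% of all genes and 19.9% of those of at least 5 CPM), and the summed level was 0.399 to 0.906 times that of the other nuclei. Lgr5, the receptor that marks crypt base stem cells, was at 147, 419 and 260.4 CPM in QCM and 319, 298 and 473 CPM in SCM, against 187, 601 and 298 CPM and 543, 912 and 439 CPM in the other nuclei, so SCM replicate 3 alone had a higher level in cluster 7. Of 18 genes each, none met the 2-fold rule in the TGF-beta and BMP list (0.890 to 1.14 times) or in the noncanonical Wnt and planar polarity list (0.889 to 1.18 times). In the latter, the receptor-like Ptk7 was at 4.16, 13.0 and 5.26 CPM in QCM and 19.5, 30.0 and 17.4 CPM in SCM. Fzd7 was at 0 to 7.24 CPM. Of 13 measured NF-kB and interferon response genes none met the rule, and the summed level was 1.01 to 1.51 times that of the other nuclei.

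Set against the other 14 clusters one by one, as means over libraries with at least 20 nuclei, cluster 7 was highest for all 7 markers. The level in cluster 7 was 11.3 times that of the next cluster for Cdh13, 9.40 times for Fn1, 9.33 times for Col4a1, 8.47 times for Col4a2, 8.22 times for Samd5, 5.93 times for Syt16 and 5.12 times for Clu. Without SCM replicate 2 in any cluster these became 8.61, 2.37, 10.9, 5.69, 5.48, 7.36 and 3.31 times, so that the value of Fn1 rested on that library. For Areg (1.25 times) and Plk2 (1.03 times) the next cluster was about as high, which was cluster 8 with 378 CPM of Areg and cluster 3 with 43.4 CPM of Plk2. Cluster 7 ranked sixth of 15 for Yap1 and next to lowest for Lgr5. The clusters with the most similar mean log2 CPM over 22241 genes were 1 (Pearson r 0.977), 3 (0.977) and 0 (0.974), a description across genes of nuclei that share libraries. Against cluster 1 alone 292 genes were at least 2-fold higher and 2 lower, against cluster 3 alone 252 and 16, and against cluster 0 alone 328 and 5.

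**Figure D2:**
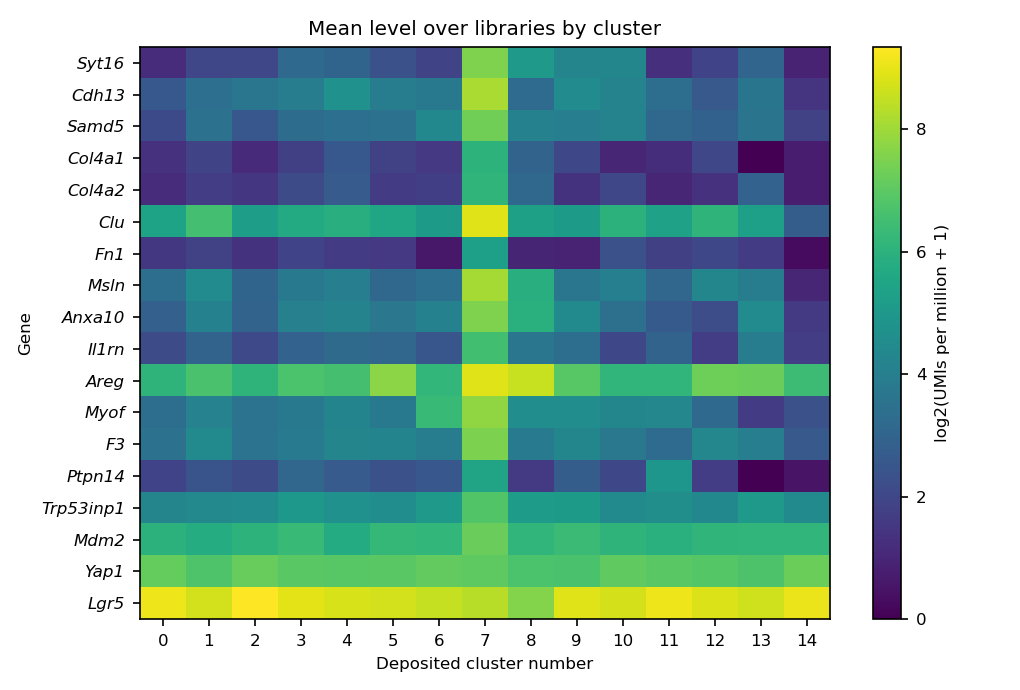
Mean level over libraries with at least 20 nuclei, as log2 of CPM plus 1 (color), for 18 genes (rows) in each of the 15 deposited clusters (columns). Cluster 7 stands out for the markers, with a next highest cluster 5.12 to 11.3 times lower (2.37 to 10.9 times without SCM replicate 2, the lowest for Fn1), but not for Yap1 or Lgr5.

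The leading genes were unevenly spread within the cluster. The deepest 10% of its nuclei, by UMIs in each library, held 34.9% to 47.4% of the cluster's UMIs. It held 93.2%, 88.5% and 71.0% of the UMIs of the 20 leading genes in QCM replicates 1, 2 and 3 and 56.7%, 51.8% and 76.7% in SCM. Among all nuclei outside the cluster, the deepest 10% held 25.6% to 39.0% of leading gene UMIs, apart from SCM replicate 1 with 79.5%, where it also held 61.4% of all UMIs. The leading genes were chosen on summed UMIs, in which deep nuclei weigh most, and this favours genes of the deep nuclei.

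As a level, the sum of the 20 leading genes in the deepest 10% was 3948, 3956 and 2952 CPM in QCM replicates 1, 2 and 3, and 171, 276 and 666 CPM in the remaining nuclei of the cluster. In SCM it was 1630.3, 4421 and 2895 CPM in the deepest 10% and 914, 3706 and 779 CPM in the rest. In nuclei outside the cluster it was 76.0, 42.6 and 105 CPM in QCM and 236, 219 and 109 CPM in SCM. SCM replicate 2 was thus the library in which the shallower nuclei came close to the deepest 10%. Its deepest 10% started at 50037 UMIs, against 3940 to 30013 UMIs in the others.

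The rise with depth was steep in QCM replicate 1, where 7 nuclei of at least 16000 UMIs had 4845 CPM of leading genes and 92 nuclei of 4000 to below 8000 UMIs had 190.1 CPM. In SCM replicate 2, the 63 nuclei of at least 16000 UMIs had 4345 CPM and 59 nuclei of 2000 to below 4000 UMIs had 563 CPM. In QCM replicate 1 outside the cluster the level was 67.4 CPM in 404 nuclei of at least 16000 UMIs and 80.9 CPM in 1598 nuclei of 4000 to below 8000 UMIs. The other libraries had a higher level outside the cluster at 16000 UMIs or more than at 4000 to below 8000 UMIs, as in SCM replicate 3 (355 against 88.2 CPM). Shallow nuclei outside the cluster were high as well. Below 1000 UMIs the level was 548 CPM in SCM replicate 2 and 65.3 CPM in QCM replicate 2, above the 307 and 58.2 CPM at 16000 UMIs or more. In SCM replicate 1 it was 428 CPM at 1000 to below 2000 UMIs against 294 CPM. Below 1000 UMIs it was 211 CPM in QCM replicate 3 and 220 CPM in SCM replicate 3, under the 285 and 355 CPM at 16000 UMIs or more.

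**Figure D3:**
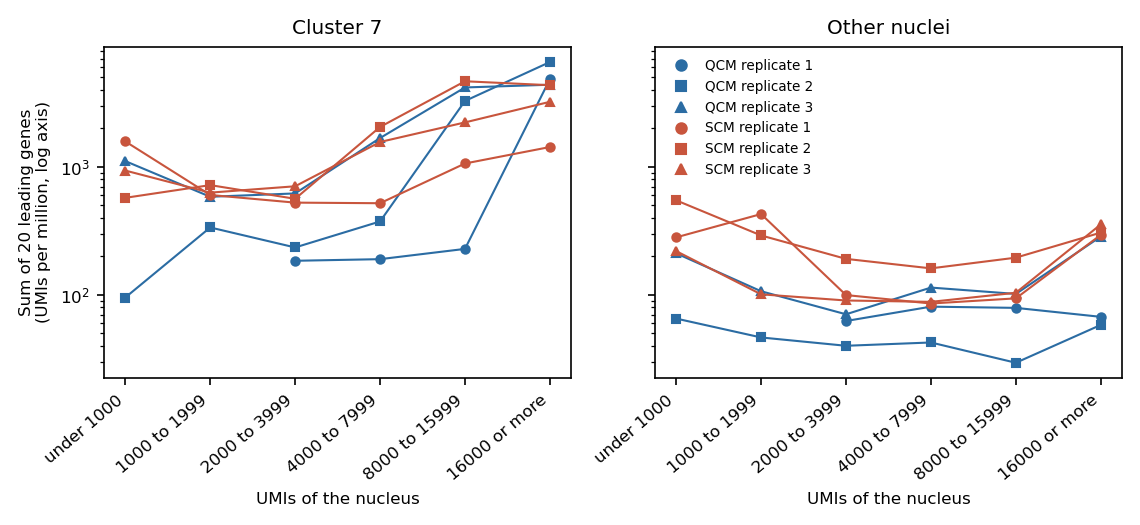
Sum of the 20 leading genes (CPM, log axis) by the UMIs of the nucleus, for cluster 7 (left) and the other nuclei (right), with 1 line per library. In cluster 7 of QCM replicate 1 the level went from 190.1 at 4000 to below 8000 UMIs to 4845 at 16000 or more, and outside the cluster the highest point is at 548 (SCM replicate 2, below 1000 UMIs).

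To compare nuclei at equal depth, each was thinned to 1000 UMIs, which left out 99 nuclei of cluster 7 and 3080 others below that depth. At least 1 leading gene UMI then remained in 18.6%, 27.0% and 46.2% of the nuclei of cluster 7 in QCM and in 42.9%, 67.5% and 46.5% in SCM. In the other nuclei, at the same depth, the shares were 7.08%, 3.92% and 8.72% and 14.5%, 18.6% and 8.90%, the background for a nucleus that does not belong to the cluster. At least 3 such UMIs remained in 3.45%, 5.39% and 5.30% in QCM and in 0%, 28.5% and 9.69% in SCM, where 0 of 14 nuclei in SCM replicate 1 allows up to 21.4%. Outside the cluster this was at most 0.645%. Before thinning, 33.8%, 55.1% and 34.5% of cluster 7 nuclei in QCM and 35.3%, 16.2% and 32.1% in SCM had no UMI of any leading gene, against 51.0% to 89.9% outside the cluster.

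Ranked within the deepest 10%, the leading genes were Msln, Cdh13, Col4a2, Syt16, Col4a1, Il1rn, Anxa10, Clu, F3 and Ptgs2 (cyclooxygenase 2). Ranked in the other 90% they were Syt16, Ano3, Creb5, Plaur, Stox2, Samd5, Eda2r, Gprc5a, Grhl3 and Samd4. Syt16 was the sole gene in both lists. Eda2r, a receptor of the TNF family that p53 induces and that was singled out after its values were seen, was at 12.1, 51.1 and 40.9 CPM in the other 90% of the cluster in QCM and at 45.1, 40.7 and 37.3 CPM in SCM, against 3.31 to 10.5 CPM outside the cluster. In the deepest 10% it was at 37.3, 41.6 and 33.2 CPM in QCM and at 45.9 and 39.1 CPM in SCM replicates 2 and 3, higher than in the rest in 3 of these 5 libraries and lower in QCM replicates 2 and 3. SCM replicate 1 had 0 UMIs of it in its deepest 10%, 2 nuclei, which allows up to 46.1 CPM.

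The fetal and regenerative list stood at 4658 to 7262 CPM in the deepest 10% of each library, against 861 to 1895 CPM in the remaining nuclei of the cluster in 5 libraries and 5349 CPM in SCM replicate 2. The p53 list stood at 969 to 1258 CPM in the deepest 10% and at 379 to 892 CPM in the rest, against 359 to 425 CPM outside the cluster. The stem cell list was lower in the deepest 10% (749 to 1377 CPM) than in the rest (1304 to 2268 CPM). Enteroendocrine markers stood at 21.7 to 92.3 CPM in the deepest 10% against 11.3 to 419 CPM in the rest, lower in 5 of 6 libraries (not SCM replicate 1), and enterocyte markers were lower in 5 of 6 (SCM replicate 2 had 1108 against 415 CPM). Outside the cluster enterocyte markers were likewise lower in the deepest 10% in 5 of 6 libraries (not SCM replicate 2, with 1439 against 1174 CPM) and enteroendocrine markers in 4 of 6, whereas the stem cell list was higher there in all 6 (1667 to 3072 CPM against 1394 to 2947 CPM).

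Nuclei of high depth can be doublets, 2 nuclei captured together. Doublets were not called here, and their part in the depth pattern was not tested. Ribosomal protein genes took 6.86%, 4.39% and 5.63% of UMIs in the deepest 10% in QCM against 16.9%, 6.35% and 11.5% in the rest of the cluster, and in SCM 6.99%, 2.57% and 4.34% against 3.70%, 2.46% and 7.29%. Outside the cluster the share was also lower in the deepest 10%, in all 6 libraries (2.06% to 7.43% against 2.996% to 17.2%). The part of this difference in composition was not tested either.

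**Figure D4:**
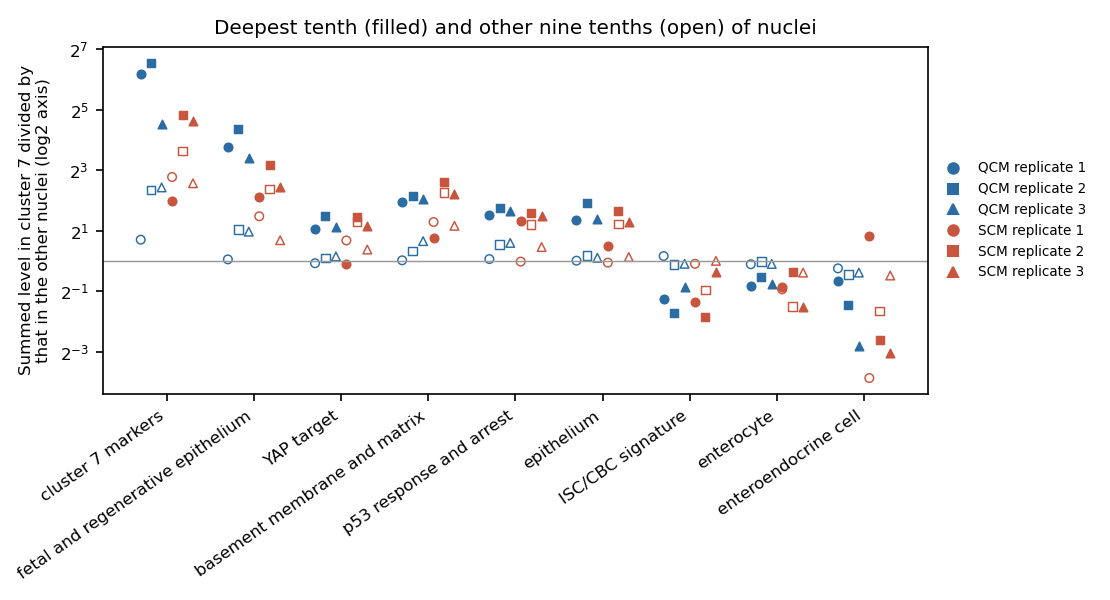
Summed level of each gene list in cluster 7 divided by that outside the cluster (log2 axis), for the deepest 10% (filled) and the other 90% (open) of nuclei, each against the nuclei of the same depth class, with blue for QCM and red for SCM. For the markers and the fetal list, filled symbols lie above open ones in every library but SCM replicate 1 for the markers, and in the deepest 10% the stem cell and enterocyte values all lie below 1.

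The next comparison asked whether SCM changed expression within cluster 7, with the sample as the replicate. By edgeR's quasi-likelihood test on UMIs summed per sample, 0 of 10515 genes were called at an adjusted p under 0.05 (0%). At an unadjusted p under 0.05 there were 1254 (11.9%), 358 with a higher level under SCM (3.4%) and 896 with a lower level (8.52%), with a smallest adjusted p of 0.0873. Scaling by library size alone in place of TMM moved the median log2 difference of all genes by 0.134, and 47.82% of the genes at that p were then higher (571 of 1194) against 28.55% with TMM. DESeq2 called 111 of the 2777 genes it gave an adjusted p (4%), 10 higher and 101 lower in SCM, 26 of the latter ribosomal protein genes. All SCM libraries lay above all QCM libraries for 1077 genes (10.2%) and below for 648 (6.16%).

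The gene with the smallest p was Mgam2-ps, annotated as a pseudogene next to the maltase-glucoamylase gene Mgam, so that its reads may be shared with a near copy. It was at 7.62, 14.5 and 13.2 CPM in cluster 7 of QCM and at 58.6, 63.5 and 63.1 CPM in SCM, with no overlap. Its log2 difference of 2.34 ± 0.30 (SE) had an adjusted p of 0.0873 by edgeR. Outside the cluster it was at 10.3 to 21.0 CPM in QCM and 47.4 to 57.4 CPM in SCM, and the media did not overlap there either.

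The other 9 genes with the smallest p among those higher in SCM were Ccdc141, Ldlrad4, Sidt1, Bicd1, Gm36569, AU020206, Slc12a8, Arhgap6 and Hmgcll1. Their log2 differences ranged from 1.11 to 2.05 with edgeR adjusted p-values of 0.322 to 0.339, and in all 9 the media did not overlap. SCM lay wholly above QCM in 10.2% of all genes tested. Genes picked by the smallest p in these libraries are prone to such separation, so it is no further evidence for them. Ldlrad4, an inhibitor of TGF-beta signalling, was at 14.6, 30.4 and 18.4 CPM in QCM and at 39.0, 105 and 104 CPM in SCM. Bicd1, a dynein adaptor, was at 40.2, 59.4 and 36.8 CPM and at 97.6, 204 and 109 CPM, and was called by DESeq2 (adjusted p = 0.0198). Hmgcll1, a lyase of ketone body synthesis, was at 8.32, 4.35 and 9.21 CPM and at 19.5, 45.0 and 24.0 CPM against at most 1.30 CPM outside the cluster.

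The 10 genes with the smallest p among those lower in SCM were Ccl20, Smim24, Gcg, Gm5485, Btnl2, Aqp1, Smim26, Pigr, Ang and Ces2a, with log2 differences from -2.80 to -1.49 and edgeR adjusted p-values of 0.339. Ccl20, a chemokine that epithelium makes to draw immune cells, was at 11.1, 27.5 and 19.7 CPM in QCM and at 0, 3.82 and 1.88 CPM in SCM, where 0 UMIs in SCM replicate 1 allow up to 19.5 CPM. Pigr, which carries antibodies across the epithelium, was at 409, 407 and 329 CPM and at 124, 103 and 212 CPM (DESeq2 adjusted p = 0.00362). Ces2a, an esterase of enterocytes, was at 509, 243 and 260 CPM and at 58.6, 121 and 127 CPM (DESeq2 adjusted p = 0.0019). Both were also lower in SCM in the other nuclei, Pigr at 217 to 413 CPM against 433 to 510 CPM and Ces2a at 113 to 242 CPM against 292 to 643 CPM.

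**Figure D5:**
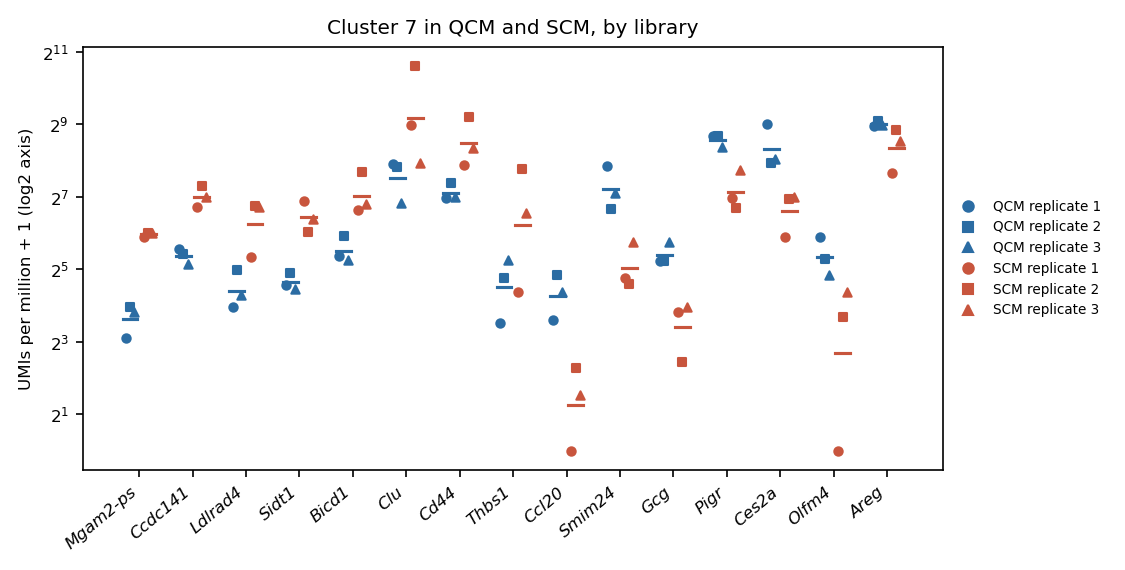
Level in cluster 7 (CPM plus 1, log2 axis) of 15 genes in each library, QCM in blue and SCM in red, with 1 shape per replicate and a bar at the mean of the log2 values in each medium. The red and blue symbols do not overlap for Mgam2-ps, Ccdc141, Ldlrad4, Sidt1 and Bicd1, higher in SCM, or for Ccl20, Smim24, Gcg, Pigr, Ces2a and Olfm4, lower in SCM, and no gene was called by edgeR. Over all genes tested, SCM lay wholly above QCM in 10.2% and wholly below in 6.16%.

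Of the 7 markers 6 could be tested, 3 had an unadjusted p under 0.05 (Syt16, Samd5 and Clu, each higher), against 3.4% of all genes, and the median log2 difference was 1.10, against -0.002 over all genes. Clu averaged 192 ± 68.7 CPM under QCM against 763 ± 689.7 CPM under SCM (mean ± SD, n = 3 each), a log2 difference of 1.87 ± 0.59 (SE) with an edgeR adjusted p of 0.339. Without SCM replicate 2, none of the 6 had an unadjusted p under 0.05, 4 of 6 estimates were above 0, and the median was 0.28. In replicates 2 and 3 alone 5 of 7 were higher at that p (median 1.88). Fn1, left out of the main fit, passed the filter there only through SCM, where it is high. Its direction was thus fixed beforehand, and that count and median include it. Without the 6% deepest nuclei 6 of 6 were higher at that p (median 2.85). When the share of ribosomal protein UMIs entered the fit 0 of 6 were (median 1.01). Of the 20 leading genes 5 had an unadjusted p under 0.05 (all higher) with a median of 0.80, and without SCM replicate 2 there was 1 higher and 1 lower and the median was -0.10. The leading genes were chosen on levels in these same libraries, and the clusters were made from such genes. The counts for the markers and the leading genes are thus a description. For these genes the median was 2.02 without the 6% deepest nuclei, with 13 of 15 higher, and 0.27 with the ribosomal share in the fit, with 0 higher and 2 lower. The deepest 10% held 71.0% to 93.2% of leading gene UMIs in QCM but 51.8% to 76.7% in SCM. Leaving out a fixed share of deep nuclei can thus take unequal parts of such genes from the media. The medians of that fit carry this limit here and in the lists below. The refits also had other backgrounds over all genes at an unadjusted p under 0.05. Without SCM replicate 2, 111 of 9838 genes were higher and 320 lower. With the ribosomal share in the fit these were 82 and 95 of 10515. They were 461 and 882 of 9413 without the 6% deepest nuclei, and 419 and 529 of 11433 in replicates 2 and 3 alone. Low counts in the first 2 fits thus came where few genes of any kind reached that p.

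Of 15 fetal and regenerative genes tested 7 were higher and 1 (Areg) lower at an unadjusted p under 0.05, against 3.4% and 8.52% of all genes, with a median log2 difference of 0.72. Without SCM replicate 2 there were 0 higher and 1 lower, and the median was 0.21. It was 1.62 without the 6% deepest nuclei, with 10 of 12 higher, and 0.14 with the ribosomal share in the fit, with 0 higher and 2 lower. Anxa1 had a log2 difference of 1.23 ± 0.44 (SE, edgeR adjusted p = 0.339) and the media did not overlap. Areg ran against the list, with 511 ± 29.7 CPM under QCM against 343 ± 129 CPM under SCM (mean ± SD, n = 3 each), a log2 difference of -0.67 ± 0.30 (SE, edgeR adjusted p = 0.41).

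Of 15 YAP targets tested 3 had an unadjusted p under 0.05, all higher (Myof, Ptpn14 and Rbms3) against 3.4% of all genes, with a median log2 difference of 0.49, or 0.11 without SCM replicate 2 and 0.88 without the 6% deepest nuclei, with 5 of 9 higher. Ptpn14, a phosphatase that restrains YAP, was at 20.1, 26.1 and 11.8 CPM in QCM and 26.0, 102 and 55.1 CPM in SCM, with SCM replicate 1 inside the QCM range. Rbms3, an RNA-binding protein, was at 20.1, 5.79 and 46.0 CPM and at 58.6, 115 and 122 CPM, with a log2 difference of 2.00 ± 0.49 (SE, edgeR adjusted p = 0.339). As a mean by cluster, Rbms3 was higher in clusters 9 and 10 (76.9 and 83.4 CPM) than in cluster 7 (61.9 CPM). When the share of ribosomal protein UMIs entered the fit, the median of the YAP targets was -0.22, so its sign rested on that choice. None of the 17 Hippo core and TEAD genes tested had an unadjusted p under 0.05 (2 of 16 without the 6% deepest nuclei), and the log2 difference of Yap1 was 0.045 ± 0.280 (SE).

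Of 11 basement membrane genes tested 4 were higher at an unadjusted p under 0.05 (Lama3, Lama5, Lamc1 and Thbs1) against 3.4% of all genes, the median log2 difference was 0.84, and without SCM replicate 2 it was 0.24 with 3 genes higher at that p. With the ribosomal share in the fit it was 0.28 with 0 higher, and without the 6% deepest nuclei 1.82 with 9 of 10 higher. Thbs1 (thrombospondin 1), a matrix protein and YAP-responsive gene, was at 10.4, 26.1 and 36.8 CPM in QCM and at 19.5, 217 and 93.2 CPM in SCM. Of 17 integrin and adhesion genes 3 were higher (Itga1, Itgb4 and Cd44), against the same share, with a median of 0.50, and 1 was higher without SCM replicate 2 (median 0.079) or with the ribosomal share in the fit (median 0.095), and 7 of 17 without the 6% deepest nuclei (median 0.83). Cd44, the hyaluronan receptor, was at 125, 165 and 126 CPM and at 234, 584 and 326 CPM, with no overlap, a log2 difference of 1.38 ± 0.32 (SE) and adjusted p-values of 0.339 by edgeR and 0.0171 by DESeq2. In the other nuclei Cd44 was at 69.0 to 72.6 CPM in QCM and 100.02 to 145 CPM in SCM.

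Of 18 actin and focal adhesion genes 4 were higher at an unadjusted p under 0.05, against 3.4% of all genes (Vcl, Tln2, Flna and Pdlim7, list median 0.36), or 2 without SCM replicate 2 (median 0.17) and 0 with the ribosomal share in the fit (median -0.038). So were 3 of 9 noncanonical Wnt genes (Ptk7, Vangl1 and Nfatc1, list median 0.23), or 1 of 8 without SCM replicate 2 and 0 of 9 with the ribosomal share in the fit (median 0.032). Ptk7 had a log2 difference of 1.62 ± 0.47 (SE, edgeR adjusted p = 0.339). Of 11 p53 genes 1 was higher (Plk2), of 10 AP-1 genes and 12 TGF-beta and BMP genes none, and of 6 stem cell genes 2 were lower (Olfm4 and Hmgb2, list median -0.021), against 8.52% of all genes. The list medians were 0.18 for the p53 genes and 0.12 for the AP-1 genes. Without the 6% deepest nuclei 3 of 11 p53 genes (median 0.50) and 2 of 8 AP-1 genes (median 0.46) were higher. Without SCM replicate 2 there were 0 higher in both lists and the medians turned to -0.072 and -0.076. The AP-1 median was also below 0 without SCM replicate 1 (-0.052).

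Leaving out 1 library at a time moved these lists widely. At an unadjusted p under 0.05 the number higher was 0 to 5 for the markers, 1 to 10 for the leading genes, 0 to 7 for the fetal list, 2 to 5 for the YAP targets, 3 to 8 for the basement membrane list, 1 to 6 for the integrin list and 1 to 5 for the actin list. Over all genes it was 111 of 9838 without SCM replicate 2 and up to 467 of 11687 without SCM replicate 1. Fn1 joined the markers in some of these fits, again only through SCM. The lowest median of each of these lists was the one without SCM replicate 2.

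Of 10 enterocyte markers tested 8 had an unadjusted p under 0.05, all lower, against 8.52% of all genes, and the median log2 difference was -1.67. It was -1.76 without SCM replicate 2, with 6 lower, -0.88 without QCM replicate 1, with 4 lower, and -0.83 in replicates 2 and 3 alone, with 4 lower. Over all genes, 320 of 9838, 374 of 9839 and 529 of 11433 were lower at that p in these fits, in that order. Of 6 Paneth cell markers 4 were lower (list median -1.68), and the median was -2.37 without SCM replicate 2, -0.89 without QCM replicate 1 and -0.66 in replicates 2 and 3 alone. Of 3 enteroendocrine markers 3 were lower (list median -1.92), and the median was -1.41 without SCM replicate 2, -3.26 without SCM replicate 3 and -1.68 in replicates 2 and 3 alone. Of 7 goblet cell markers 1 was higher and 2 were lower (list median -0.72), and the median was -1.50 without SCM replicate 2 and -0.00064 without QCM replicate 1 but 0.35 in replicates 2 and 3 alone.

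The enterocyte markers summed to 4328, 1207 and 2224 CPM in cluster 7 of QCM and 358, 743 and 1181 CPM in SCM, and outside it to 5392, 1359 and 2741 CPM and 612, 1269 and 2079.5 CPM. RNA that is free in the droplets can bring such transcripts into any nucleus, and its part was not tested. When the share of ribosomal protein UMIs entered the fit, the median of the enterocyte list was -0.0042, that of the Paneth cell list 0.29, of the enteroendocrine list -0.94 and of the goblet cell list -0.096. In that fit no member of the 4 lists had an unadjusted p under 0.05, against 177 of all 10515 genes (1.68%).

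That share was lower on average in SCM, in cluster 7 and outside it, but the media overlapped in both. Ribosomal protein genes took 13.2%, 5.67% and 9.39% of the UMIs of cluster 7 in QCM and 5.10%, 2.51% and 5.90% in SCM, a difference of -4.90 percentage points for which the exact two-sided permutation test gave p = 0.2, where the smallest possible is 0.1. In the other nuclei the difference was -5.11 percentage points (exact permutation p = 0.2). Of 107 ribosomal protein genes tested in cluster 7, 62 were lower and 1 higher at an unadjusted p under 0.05 by edgeR and none was called. Over all genes the shares were 8.52% and 3.4%. This set was taken up because earlier results of these data had named such genes, so the counts are a description. Whether the share reflects the medium or the quality of the nuclei cannot be told apart here.

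Whether the effect of SCM in cluster 7 differed from that in the other nuclei was tested as an interaction, with the sample as a block. edgeR called 0 of 14848 genes (0%), with 826 at an unadjusted p under 0.05 (5.56%), 469 of them with a higher (3.16%) and 357 with a lower difference in cluster 7 (2.4%). With scaling by library size alone these were 340 and 468. The log2 ratio of cluster 7 to the other nuclei had one sign in every QCM library and the other in every SCM library in 157 of these genes (1.06%), and in 2 of 206 named genes (0.971%), Mgam2-ps and Pepd. By DESeq2 the count was 0 as well, and 416 genes had an unadjusted p under 0.05. This did not hold for every choice of libraries or model, and edgeR called 128 genes without SCM replicate 3, 10 without SCM replicate 1, 2 without SCM replicate 2 (Anxa10 and Nts, the latter named after its values were seen) and 1 without QCM replicate 1 (Msln). Without the 6% deepest nuclei it called 17.

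The 5 genes with the smallest p for a higher difference in cluster 7 were Zg16, Thsd7a, Abtb2, Pepd and Abcc1, and for a lower difference Gm8979, Gcg, Cyp2c68, Anxa10 and Gm20663. Gcg had an interaction of -1.60 ± 0.31 (SE, log2) with an edgeR adjusted p of 0.386. It was at 36.7, 36.2 and 52.6 CPM in cluster 7 of QCM and at 13.0, 4.41 and 14.6 CPM in SCM, whereas the other nuclei had 52.6 to 94.3 CPM and 38.8 to 53.1 CPM. Abcc1, a drug and glutathione conjugate exporter, had 0.84 ± 0.21 (SE, edgeR adjusted p = 0.583), with 34.7, 52.1 and 67.1 CPM in QCM and 91.1, 133 and 105 CPM in SCM.

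Among the 20 leading genes the interaction was negative more often than positive. At an unadjusted p under 0.05, 6 were lower and 0 higher, against 2.4% and 3.16% of all genes. The median was -0.34 against 0.066 over all genes. These genes were chosen by the ratio of the cluster to the other nuclei in these same libraries. The interaction compares those same ratios between the media, so the counts and the median are a description. No refit of this list is given for the interaction. Syt16 had -1.24 ± 0.36 (SE, edgeR adjusted p = 0.68), since it was also higher in SCM outside the cluster, at 5.27 to 15.3 CPM against 0.593 to 3.76 CPM. Anxa10 had -1.45 ± 0.31 (SE, edgeR adjusted p = 0.514), and its sign turned to 1.19 without the 6% deepest nuclei.

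The share of nuclei in cluster 7 averaged 3.29% ± 0.551 under QCM against 4.28% ± 0.483 under SCM (mean ± SD, n = 3 each), for which the exact two-sided permutation test gave p = 0.1, the smallest possible. By edgeR on the nuclei per cluster the log2 difference was 0.388 (unadjusted p = 0.172). Among nuclei of at least 2000 UMIs the difference widened from 0.996 to 1.98 percentage points, with the same permutation p. That cut is not neutral between the media. Nuclei of cluster 7 had 4.63 and 1.69 times the mean UMIs of the others in SCM replicates 2 and 3, against 0.916 to 1.16 times in QCM. The clusters were made from the genes described above, Clu and Samd5 among them, so this share was not independent of their levels, and it is no measurement separate from them.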

How the data were processed

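Nuclei of 6 organoid samples (3 per medium) were profiled with a 3′ single-nucleus RNA kit that counts UMIs. Per the submitters' processing notes the authors aligned reads with Cell Ranger 2.1.1 to mm10. They filtered nuclei, scaled each to a common total, corrected for library and clustered, and deposited the raw UMI counts per gene and nucleus with each nucleus's cluster number. The deposited log-scaled matrix was not used.

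UMI counts of cluster 7 and of all other nuclei were summed per sample over 31319 genes and given as CPM. A ratio of cluster 7 to the other nuclei used a pseudocount of 1 CPM and had no test. SCM was compared with QCM by edgeR 4.0.16 (TMM, quasi-likelihood, R 4.3.3), with Benjamini-Hochberg adjustment over all genes tested, and the interaction used 12 sums with the sample as a block. Shares were compared by exact permutation (SciPy 1.17.1). DESeq2 1.42.0, voom in limma 3.58.1, other filters and scalings, a ribosomal covariate, and the omission of each sample or of the 6% deepest nuclei were alternatives. The edgeR step was tested on simulated data. A gene or list level summed over few nuclei is less precise, and SCM replicate 1 gave 153653 UMIs in cluster 7 against 690318 to 3402961 in the others.

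Named genes were the 7 markers, the 20 highest and 10 lowest ratios, the 10 smallest p-values per direction for SCM and 5 per direction for the interaction, up to 4 members of each list by level and by p, and Yap1, Ptk7, Fzd7 and Lgr5. Other genes were named after their values were seen. The members and the 27 gene lists were chosen with earlier results of these data known. Promoters came from RefSeq and gene coordinates from GENCODE on GRCm38. A few genes are not reported here.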

Additional observations from a re-analysis of the deposited data

Results flagged for a closer look

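Of 206 genes examined, namely those named by the rule, 2 (0.971%) had a log2 ratio of cluster 7 to the other nuclei of one sign in every QCM library and of the opposite sign in every SCM library, against 157 of the 14848 genes tested (1.06%). A library with 0 UMIs counted only where 3 UMIs would still leave the sign. Neither gene was called by edgeR's test of the difference after adjustment in the fit reported. Pepd was among the genes called with the replicate number as a block, as given below.

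For Mgam2-ps the ratio was -0.38, -0.27 and -0.64 in QCM and 0.03, 0.27 and 0.41 in SCM, a difference of 0.67 with an edgeR interaction of 0.83 ± 0.28 (SE, adjusted p = 0.75).

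For Pepd, a peptidase that splits dipeptides ending in proline, the ratio was -0.06, -0.67 and -0.30 in QCM and 0.52, 0.65 and 0.31 in SCM, a difference of 0.84 with an edgeR interaction of 0.86 ± 0.21 (SE, adjusted p = 0.573).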

How the results depend on the processing

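For SCM against QCM within cluster 7, edgeR called 0 genes in the fit reported, and calls appeared with DESeq2 (111), without the filter on low counts (440), with library size scaling (1, Mgam2-ps) and with the replicate number as a block (1, Nts). The other alternatives run for that comparison, each sample left out among them, called 0. For the interaction, edgeR called 0 genes, and 31 without the filter, 17 without the 6% deepest nuclei, 69 with the replicate number as a block, 8 with replicates 2 and 3 alone (chosen after seeing the data), and 0 to 128 with each sample left out. The block calls included 7 of the 10 interaction genes named (Anxa10, Cyp2c68, Gcg, Gm20663, Gm8979, Pepd and Thsd7a). Deviations of same-numbered samples from their group means correlated at 0.158, 0.232 and 0.040 over 10515 genes, and since 1 of these was under 0.1 the numbers were not taken to pair the samples, although each sample correlated best with its own number. The interaction of Anxa10 turned to 1.19 without the 6% deepest nuclei.

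The 244 genes at least 2-fold higher in cluster 7 became 79 with a pseudocount of 10 CPM, 64 at 4-fold, 143 at 20 CPM or more, 23 without the 6% deepest nuclei and 45 with nuclei thinned to 1000 UMIs. The 15 lower genes became 318 with a pseudocount of 0.1 CPM, 2 with 10 CPM, 1 at 4-fold, 2 at 20 CPM or more, 6 without the deepest nuclei, 2 against cluster 1, 5 against cluster 0, 99 with thinned nuclei, and 15 to 34 with each sample left out. Thinning and the choice of replicates 2 and 3 were added after seeing the data. The cause of these shifts was not tested. With 17 nuclei in SCM replicate 1, genes under 19.5 CPM were below 3 UMIs there.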
